A study of Mus musculus with 6 samples.

Results

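The genes described here are 10 genes of the p53 response and of the BH3 branch of apoptosis: Trp53, which encodes p53 itself, Mdm2, Cdkn1a, Pmaip1, Bbc3, Bax, Ccng1, Trp53inp1, Sesn2 and Fas. They were taken by symbol from the deposited gene table, where each of the 10 has a row among 23355 entries. Expression was measured by RNA sequencing in spermatogonia, the dividing germ cells of the mouse testis that include its stem cells. The cells were positive for ID4-GFP, a fluorescent readout of ID4, which is an inhibitor of DNA-binding basic helix-loop-helix factors. The comparison sets 3 samples from mice with germ cell overexpression of ID4, described as constitutive, against 3 samples from control mice. Cells of both groups were GFP+. The promoter that drives the overexpression, the age of these animals, their strain and the genotype of the controls beyond the word control are not given in the sources used here.

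p53 is a transcription factor that accumulates after DNA damage and other stress and switches on genes that arrest the cell cycle, repair DNA or start apoptosis. MDM2, itself a p53 target, ubiquitinates p53 for destruction and so closes a feedback loop. Apoptosis through mitochondria is set by the BCL2 family: BH3-only proteins such as NOXA (Pmaip1) and PUMA (Bbc3) bind the anti-apoptotic members, and BAX and BAK1 form the pore. In the testis BAX is needed for the early wave of germ cell death, and mice that lack it accumulate spermatogonia and are infertile.

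The unit is FPKM, which counts sequenced fragments per kilobase of a gene's transcript, relative to the size of the library, so levels can be compared between genes. The authors deposited 1 value per group, already combined over its 3 samples, so no value below has a replicate SD, and the spread between samples enters only through the authors' own test. The labels give each sample its own number but do not say that each came from a separate animal, so the p-values measure the spread between these samples, which may be technical. A gene was called higher or lower where the authors' q-value was at most 0.05. Depth per sample is unknown. Id4 itself had 13.4 FPKM with overexpression and 6.37 FPKM in controls, and the authors' deposited table lists q = 0.000835 for it. The cell type was read from 11 spermatogonia markers, all tested, none of which was listed at 0. The pan-germ-cell gene Ddx4 had 255 FPKM with overexpression and 250.01 FPKM in controls and was not called, and Dazl had 790.5 FPKM with overexpression and 918 FPKM in controls and was not called. Within the list 3 were higher, Id4, Gfra1 and Ret, and 4 were lower, Kit, Stra8, Uchl1 and Lin28a. These were 27.3% and 36.4% of the list, beside 9.59% called higher and 7.42% called lower among all tested genes. One of the higher genes, Id4, is the overexpressed gene itself. The GDNF co-receptor gene Gfra1 had 37.3 FPKM with overexpression and 15.8 FPKM in controls, and Kit, which marks differentiating spermatogonia, had 38.1 FPKM with overexpression and 84.3 FPKM in controls. The part of this shift among the germ cells in the results below was not tested.

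Of the 10 genes, 4 rose with ID4 overexpression, 0 fell, 4 were tested and not called, and 2 were too low for the authors' test. The 4 that rose were Pmaip1, Cdkn1a, Ccng1 and Mdm2, and in the authors' test, of Cuffdiff layout, 4 were higher and 0 lower at an unadjusted p under 0.05 as well. Across all 10990 tested genes, 9.59% were called higher and 7.42% were called lower. The tested members had a median log2 fold change, overexpression over control, of 0.34, against 0.01 over all tested genes. All 8 tested members had a log2 fold change above 0, as did 51.5% of all tested genes. In a bulk sample, fewer cells of a type and less RNA per cell cannot be told apart, and this holds for each value below.

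Markers of cells other than spermatogonia moved in the same comparison, in which 9.59% of all tested genes were called higher and 7.42% lower. Of 14 tested macrophage markers 14 were higher, and the summed FPKM of the 15 markers listed was 332 with overexpression and 90.1 in controls. Of 11 tested Sertoli cell markers 8 were higher, with sums over 15 genes of 385.2 FPKM with overexpression and 193 FPKM in controls. Leydig cell markers were higher in 4 of 5 tested, with sums over 7 genes of 73.7 FPKM with overexpression and 26.5 FPKM in controls. Fibroblast markers were higher in 2 of 3 tested, Sparc and Pdgfra, with sums over 7 genes of 46.2 FPKM with overexpression and 18.8 FPKM in controls. Most of those sums came from Sparc, with 34.1 FPKM with overexpression and 11.5 FPKM in controls. Dcn was not called, and Col1a1, Col1a2, Col3a1 and Lum were not tested. Col1a1 had 1.62 FPKM with overexpression and 1.28 FPKM in controls. None of the markers of these cell types was listed at 0 in either group. The part of these cells in the results below was not tested.

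**Figure D1:**
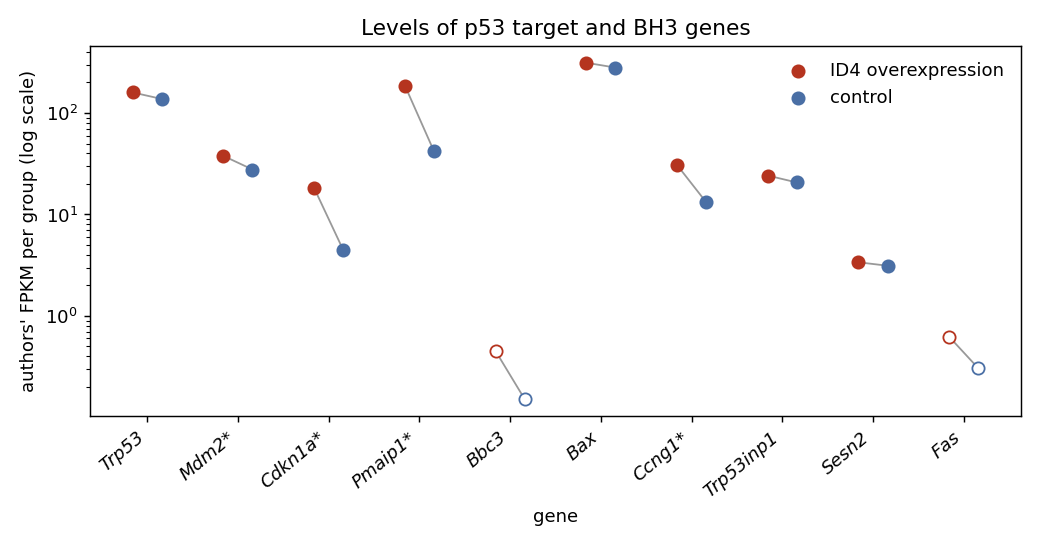
Authors' FPKM per group (vertical axis, log scale) for the 10 genes, with ID4 overexpression in red on the left and control in blue on the right of each gene. Filled points were tested by the authors, open points were not, and an asterisk marks the 4 genes called higher. Pmaip1 and Cdkn1a have the steepest lines, and Trp53 and Bax lie high and nearly level.

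Trp53 and its inhibitor gene Mdm2 stand at the head of the pathway. Trp53 lies on chromosome 11, positions 69580359 to 69591873 of GRCm38, plus strand. Its level was 159 FPKM with overexpression and 138 FPKM in controls, a log2 fold change of 0.21 that was not called (q = 0.432 in the authors' deposited table). That level placed Trp53 above 92.4% of the tested genes already in controls. Reads of Trp53 could be shared with its processed pseudogene on chromosome 17, which has no row of its own in the table.

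Mdm2 (chromosome 10, 117688905 to 117710716, minus strand) had 37.8 FPKM with overexpression and 27.7 FPKM in controls. It rose 1.36-fold, with q = 0.0481 in the authors' deposited table, just inside the threshold. Its log2 fold change of 0.44 is near the smallest size that was called anywhere in the table. Of 906 tested genes with an absolute log2 fold change from 0.4 to 0.5, 95 were called, and of 1182 from 0.3 to 0.4 the number called was 0. At a q threshold of 0.01 Mdm2 was not called, and 3 members remained higher, where 6.04% of all tested genes were. The ratio of Mdm2 to Trp53 FPKM was 0.237 with overexpression and 0.202 in controls.

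Among the cell cycle targets, Cdkn1a and Ccng1 rose. Cdkn1a encodes p21, the inhibitor of cyclin-dependent kinases through which p53 stops cells before DNA replication. It lies on chromosome 17, 29090986 to 29100722, on the plus strand, and an annotated model on the opposite strand overlaps it. Its level was 18.2 FPKM with overexpression and 4.47 FPKM in controls, a rise of 4.06-fold (q = 0.000835 in the authors' deposited table). In controls Cdkn1a was a low transcript, above 27.5% of tested genes, and with overexpression it stood above 61.8%. Its rise ranked 129 among the 10985 tested genes that have a fold change.

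Ccng1 encodes cyclin G1, which recruits a phosphatase to MDM2. On chromosome 11, 40748552 to 40755286, minus strand, it had 30.7 FPKM with overexpression and 13.3 FPKM in controls. The rise was 2.32-fold, rank 441, with q = 0.000835 in the authors' deposited table.

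Pmaip1 showed the largest change of the 10 genes. It encodes NOXA, a BH3-only protein that binds the anti-apoptotic protein MCL1. The gene lies on chromosome 18, 66458604 to 66465558, plus strand. Its level was 186 FPKM with overexpression and 42.2 FPKM in controls, a rise of 4.42-fold and rank 103 by fold (q = 0.000835 in the authors' deposited table). Pmaip1 is an abundant transcript in both groups, above 94.4% of tested genes with overexpression and above 78.8% in controls. In FPKM it gained 144.3, whereas Cdkn1a gained 13.7 and Ccng1 gained 17.5.

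Of the remaining death genes, Bax was not called, and Bbc3 and Fas were too low to be tested. Bax (chromosome 7, 45461695 to 45466898, minus strand) was the most abundant member. It had 313 FPKM with overexpression and 280.5 FPKM in controls, a log2 fold change of 0.16 that was not called (q = 0.601 in the authors' deposited table). An annotated protein-coding model on the same strand overlaps Bax, so their reads may not be separable. Bbc3, which encodes PUMA, had 0.450 FPKM with overexpression and 0.152 FPKM in controls (chromosome 7, 16309583 to 16318334). Fas, the death receptor of the cell surface, had 0.623 FPKM with overexpression and 0.306 FPKM in controls (chromosome 19, 34290659 to 34327770). Of 11218 entries below 1 FPKM in both groups, 0 were tested, so a change in Bbc3 or Fas could not be called at this level.

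The last pair are stress genes with roles beyond cell death. Trp53inp1, whose product promotes p53 phosphorylation and autophagy, had 24.2 FPKM with overexpression and 20.7 FPKM in controls (chromosome 4, 11156441 to 11174377). Its log2 fold change of 0.23 was not called (q = 0.407 in the authors' deposited table). Sesn2 encodes sestrin 2, a leucine sensor that restrains mTORC1, and had 3.38 FPKM with overexpression and 3.13 FPKM in controls (chromosome 4, 132492807 to 132510456). Its log2 fold change was 0.11, with q = 0.834 in the authors' deposited table. An annotated noncoding model on the same strand overlaps Sesn2, so their reads may not be separable.

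**Figure D2:**
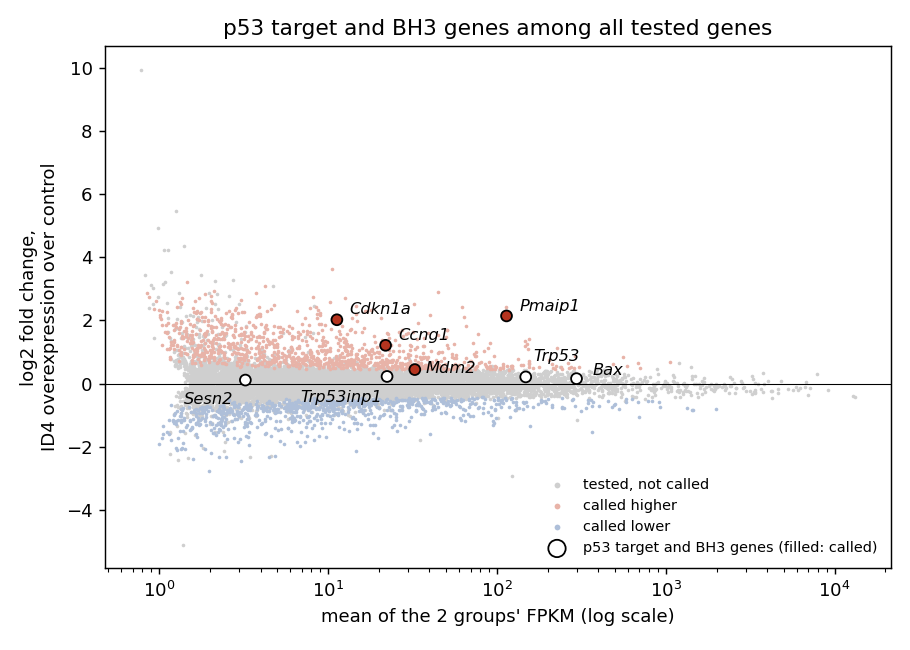
Log2 fold change, ID4 overexpression over control (vertical axis), against the mean FPKM of the groups (horizontal axis, log scale) for the tested genes that have a fold change, with the 8 tested members outlined in black and filled where called. Pmaip1 is the member that combines a large change with a high level, and Mdm2 lies at the edge of the called genes.

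The nearest tested genes around the 4 that rose were also read. For each, the nearest tested gene on either side in the table was taken, at 8.51 to 2665 kb. Of these 8 neighbours, 0 were higher and 1 was lower by the authors' q, and 1 was higher and 1 lower at an unadjusted p under 0.05, the higher one being Cpsf6 beside Mdm2. The lower one was Cpne5, 55.8 kb beyond Cdkn1a, with 8.30 FPKM with overexpression and 11.9 FPKM in controls (q = 0.036 in the authors' deposited table). On the other side of Cdkn1a the splicing factor gene Srsf3 had 260.3 FPKM with overexpression and 274.7 FPKM in controls, and was not called. Nudcd2, 8.51 kb from Ccng1, had 40.6 FPKM with overexpression and 33.7 FPKM in controls and was not called either. The neighbours of Pmaip1, Lman1 at 456 kb and Chmp1b at 623 kb, were not called. Across all tested genes 9.59% were called higher and 7.42% lower, so 8 neighbours are too few to show whether neighbourhoods moved. The neighbours were named after their values were seen.

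The promoters of the members were then read for the decamer unit of the p53 response element, which p53 binds as a tandem repeat. Windows of 300 bases around annotated starts, 250 before and 50 after, came from RefSeq on GRCm38.p6, and were matched for 8 of the 10 genes, all but Trp53inp1 and Pmaip1. An exact match to the decamer consensus, whose pattern is the same on either strand, lay in the windows of 5 of the 8 genes: Cdkn1a, Ccng1, Mdm2, Trp53 and Bax. Over all 27025 symbols with a window, 9.55% had a match. The members were picked as genes of the p53 response and of BH3 apoptosis, so setting these shares side by side is not a test. The letters CATG, the core of the strongest p53 units and also identical on both strands, lay in the windows of 3 of the 8 genes, Cdkn1a, Bax and Sesn2, against 64.8% of all symbols. The upstream 250 bases of the 3 called genes with a window are printed here because they show where those matches lie, with each decamer in capitals.
Cdkn1a, chr17:29090729-29090978, plus strand: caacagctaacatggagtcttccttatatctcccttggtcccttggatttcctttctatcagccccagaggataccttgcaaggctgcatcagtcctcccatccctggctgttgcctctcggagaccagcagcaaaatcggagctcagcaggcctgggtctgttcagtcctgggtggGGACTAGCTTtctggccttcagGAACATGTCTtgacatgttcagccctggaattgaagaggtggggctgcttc
Ccng1, chr11:40755287-40755536, minus strand: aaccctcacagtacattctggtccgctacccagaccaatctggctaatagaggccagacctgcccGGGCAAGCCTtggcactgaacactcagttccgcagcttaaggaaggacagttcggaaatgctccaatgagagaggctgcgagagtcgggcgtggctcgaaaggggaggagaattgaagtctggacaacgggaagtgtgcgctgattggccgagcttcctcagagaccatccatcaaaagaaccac
Mdm2, chr10:117710759-117711008, minus strand: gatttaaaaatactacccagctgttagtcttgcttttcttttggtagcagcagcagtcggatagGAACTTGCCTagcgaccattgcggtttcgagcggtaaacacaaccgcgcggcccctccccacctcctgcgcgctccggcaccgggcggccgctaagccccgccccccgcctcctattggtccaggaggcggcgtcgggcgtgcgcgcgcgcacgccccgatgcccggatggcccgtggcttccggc

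Cdkn1a carried 2 matches in this window, at positions -73 to -64 and -51 to -42 before that annotated start. Its window at a second annotated start, farther downstream at 29093519 to 29093818, had 0. Which start is used in these cells was not tested. The Cdkn1a match nearer to the start holds the CATG core. A further CATG lies in the bases directly after it, which are not an exact match and so are not in capitals. The Ccng1 match lay at -185 to -176 and the Mdm2 match at -186 to -177. The match was not limited to genes that rose, since Trp53 and Bax, which were not called, each had 1 as well. These shorter stretches of 30 bases show those matches for comparison.
Trp53, chr11:69580274-69580303, plus strand: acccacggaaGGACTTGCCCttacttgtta
Bax, chr7:45467080-45467109, minus strand: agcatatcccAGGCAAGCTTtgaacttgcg

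Bbc3, Sesn2 and Fas had 0 matches in their windows. A match here describes the letters of the window and says nothing of binding, and p53 elements farther away or inside the genes lie outside these windows.

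NOXA was next set within the whole BCL2 family, since its fold change was the largest among the family members tested. Setting aside Pmaip1, Bax and Bbc3, the authors tested 8 other family genes. Of these 8, 0 were higher and 1 (12.5%) was lower, beside 9.59% and 7.42% of all tested genes. The 8 had a median log2 fold change of -0.20. At the authors' unadjusted p under 0.05 the counts were 0 higher and 3 lower. The lower one was Bik, a BH3-only gene, with 24.5 FPKM with overexpression and 36.5 FPKM in controls (q = 0.0358 in the authors' deposited table). Bik lies on chromosome 15, where 56.2% of the 413 tested genes were called lower. The other pair that passed unadjusted were BH3-only genes that missed the q threshold. Bcl2l11, which encodes BIM, had 4.80 FPKM with overexpression and 6.77 FPKM in controls (q = 0.0645 in the authors' deposited table). Bad, whose product is held inactive by survival kinases, had 12.9 FPKM with overexpression and 19.0 FPKM in controls (q = 0.114 in the authors' deposited table). Bcl2l11, Bad, Bid and the other family genes given below were named after their values were seen. Bid, whose product links death receptors to mitochondria, had 69.7 FPKM with overexpression and 71.3 FPKM in controls and was not called.

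Summed over the 8 BH3-only genes, transcript levels were 301 FPKM with overexpression and 179 FPKM in controls. Pmaip1 alone made up 62.0% of that sum with overexpression and 23.6% in controls. Without Pmaip1 the sum was 114 FPKM with overexpression and 137 FPKM in controls, which is 0.838 of the control level. The difference, overexpression minus control, was -22.1 FPKM, of which Bik on chromosome 15 gave -12.0 FPKM. In controls Bid was the leading BH3-only transcript, at 39.9% of the sum, and with overexpression it was Pmaip1. These sums rest on 1 value per group and have no error.

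On the anti-apoptotic side neither of the tested genes was called. The 8 genes of that role summed to 75.7 FPKM with overexpression and 71.1 FPKM in controls. Bcl2l1, which encodes BCL-XL, had 64.0 FPKM with overexpression and 61.0 FPKM in controls, with q = 0.844 in the authors' deposited table. Mcl1, the partner of NOXA, had 8.31 FPKM with overexpression and 7.33 FPKM in controls (q = 0.606 in the authors' deposited table). The Pmaip1 level was 22.4 times that of Mcl1 with overexpression and 5.75 times in controls. Bcl2 itself had 0.374 FPKM with overexpression and 0.436 FPKM in controls and was not tested. Among pore formers Bax made up 98.7% of summed FPKM with overexpression and 98.5% in controls, while Bak1 had 0.0896 FPKM with overexpression and 0.0268 FPKM in controls.

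**Figure D3:**
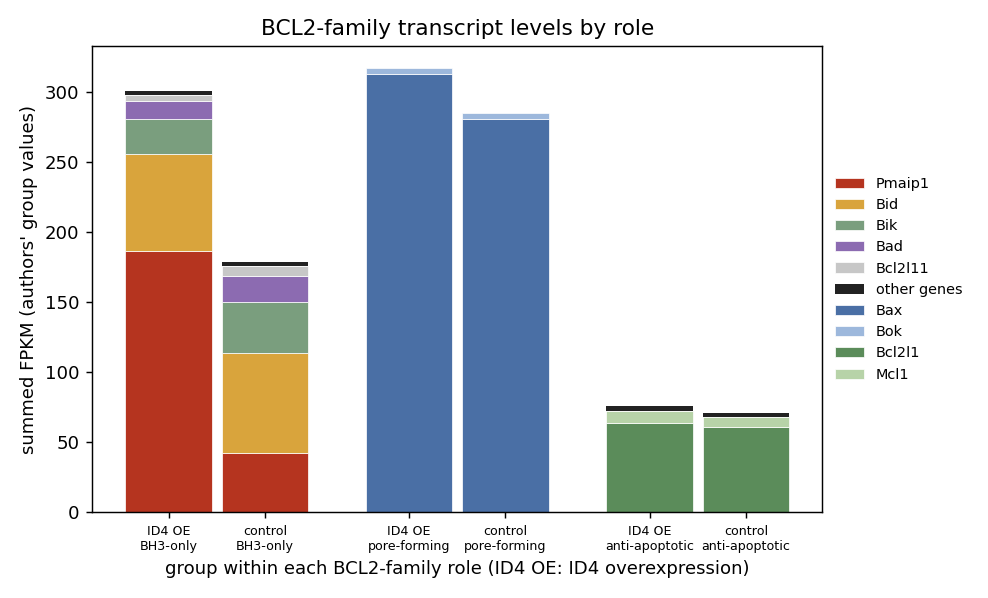
Summed FPKM of BCL2-family genes (vertical axis, from 0) by role, with ID4 overexpression left of control in each pair and colours for the genes. The Pmaip1 segment is 186 FPKM with overexpression and 42.2 FPKM in controls, while the pore-forming and anti-apoptotic bars are of similar height in both groups.

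Other p53 targets were divided. Of 32 further targets on a list, 26 were tested, of which 6 were higher, 2 lower and 18 not called. That is 23.1% higher and 7.69% lower, beside 9.59% and 7.42% of all tested genes. The 26 targets had a median log2 fold change of 0.02. Eda2r, of the TNF receptor family, had 6.76 FPKM with overexpression and 1.85 FPKM in controls. Plk2, a polo-like kinase, had 31.1 FPKM with overexpression and 14.8 FPKM in controls. The authors' deposited table lists q = 0.000835 for both. Dcxr, a carbonyl reductase, had 4.07 FPKM with overexpression and 1.40 FPKM in controls, and was called (q = 0.0258 in the authors' deposited table). The related kinase gene Plk3 had 4.83 FPKM with overexpression and 2.54 FPKM in controls, and Zfp365 had 2.44 FPKM with overexpression and 1.24 FPKM in controls, both called. The sixth was Btg2, an antiproliferative gene, with 64.2 FPKM with overexpression and 45.7 FPKM in controls.

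Several well-known p53 targets did not pass the test. Rps27l, the most abundant, had 779 FPKM with overexpression and 882 FPKM in controls, and Ddb2, of nucleotide excision repair, had 31.7 FPKM with overexpression and 33.9 FPKM in controls. Phlda3, a repressor of AKT, had 3.55 FPKM with overexpression and 3.50 FPKM in controls, and Ppm1d, a phosphatase that switches p53 off, had 5.69 FPKM with overexpression and 5.80 FPKM in controls. Aen, an apoptosis-enhancing nuclease, had 63.1 FPKM with overexpression and 48.7 FPKM in controls, with q = 0.12 in the authors' deposited table. The lower targets were Ptp4a3, a phosphatase, with 4.08 FPKM with overexpression and 8.61 FPKM in controls, and Rrm2b, the p53-inducible ribonucleotide reductase subunit, with 1.66 FPKM with overexpression and 3.04 FPKM in controls. Both lie on chromosome 15, and among the 24 tested targets elsewhere 0 were lower, also at an unadjusted p under 0.05. Btg2, Rrm2b and the genes that did not pass were named after their values were seen.

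Among p53 regulators 18 were tested, of which 2 were higher and 0 lower. The share of higher calls was 11.1%, beside 9.59% of all tested genes. The regulators had a median log2 fold change of -0.0023, and the counts at an unadjusted p under 0.05 were again 2 and 0. The 2 that rose were Mdm4 and Rchy1. Mdm4, the MDM2 relative that masks the p53 activation domain, had 32.9 FPKM with overexpression and 21.5 FPKM in controls, with q = 0.00986 in the authors' deposited table. Rchy1, a ubiquitin ligase of p53 also called PIRH2, had 30.3 FPKM with overexpression and 20.7 FPKM in controls, with q = 0.0416 in the authors' deposited table. The damage kinases did not pass: Atm had 11.8 FPKM with overexpression and 11.4 FPKM in controls, and Chek2 had 21.6 FPKM with overexpression and 22.3 FPKM in controls. These kinases were named after their values were seen.

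Among the paralogs of the members, 1 of the 8 tested was higher, Mdm4, and 1 was lower. That is 12.5% each, beside 9.59% higher and 7.42% lower among all tested genes. The median log2 fold change of the paralogs was -0.17. Cdkn1b, which encodes p27, had 1.40 FPKM with overexpression and 1.65 FPKM in controls, and Cdkn1c, which encodes p57, had 8.02 FPKM with overexpression and 10.6 FPKM in controls, neither called. Ccng2 had 5.62 FPKM with overexpression and 3.92 FPKM in controls and was not called (q = 0.112 in the authors' deposited table). The lower one was Sesn3, a FOXO target, with 3.38 FPKM with overexpression and 6.05 FPKM in controls (q = 0.011 in the authors' deposited table). Trp63 and Trp73, the p53 relatives, stood at 0.335 and 0.0124 FPKM with overexpression and at 0.287 and 0.0463 FPKM in controls, and were not tested. Cdkn1b, Cdkn1c, Ccng2, Trp63 and Trp73 were named after their values were seen.

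Genes of caspases and death receptor signalling formed a further list. The 18 tested included 2 that were higher and 0 that were lower, a share of higher calls of 11.1% beside 9.59% of all tested genes, and their median log2 fold change was 0.08. At an unadjusted p under 0.05, 3 were higher and 1 was lower. Among the higher genes Tnfrsf1a, a receptor for TNF, had 6.50 FPKM with overexpression and 2.58 FPKM in controls (q = 0.000835 in the authors' deposited table). Casp9, which acts below the mitochondrial pore, had 18.1 FPKM with overexpression and 18.3 FPKM in controls and was not called. Fasl, the ligand of Fas, had 0.158 FPKM with overexpression and 0.190 FPKM in controls and was not tested. Casp9 and Fasl were named after their values were seen.

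Pmaip1, Bbc3 and Sesn2 are also known targets of the integrated stress response, in which ATF4 and CHOP act. A list of stress genes was therefore read beside them. It is not limited to targets of ATF4 and CHOP, since it also holds Hspa5, Xbp1 and Herpud1. The authors tested 10 of the 12 listed, and called 1 higher and 3 lower. These are 10% and 30%, beside 9.59% and 7.42% of all tested genes. Without chromosome 15, 2 were lower. At the authors' unadjusted p under 0.05 the counts were 3 higher and 3 lower. Ppp1r15a and Hspa5 were higher only unadjusted, with q = 0.0814 and 0.0976 in the authors' deposited table. Both were named after their values were seen. The tested genes of the list had a median log2 fold change of 0.00049, with 5 above 0 and 5 below. Atf4 had 51.8 FPKM with overexpression and 74.6 FPKM in controls, and lies on chromosome 15. Trib3 and Asns fell to 1.59 and 23.9 FPKM with overexpression, against 5.15 and 42.5 FPKM in controls. The authors' deposited table lists q = 0.0229 for Atf4 and 0.000835 for Trib3 and Asns. Ddit3, which encodes CHOP, had 22.7 FPKM with overexpression and 21.6 FPKM in controls and was not called, and it was named after its values were seen. The higher gene was Atf3, a stress factor, with 5.12 FPKM with overexpression and 1.48 FPKM in controls.

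**Figure D4:**
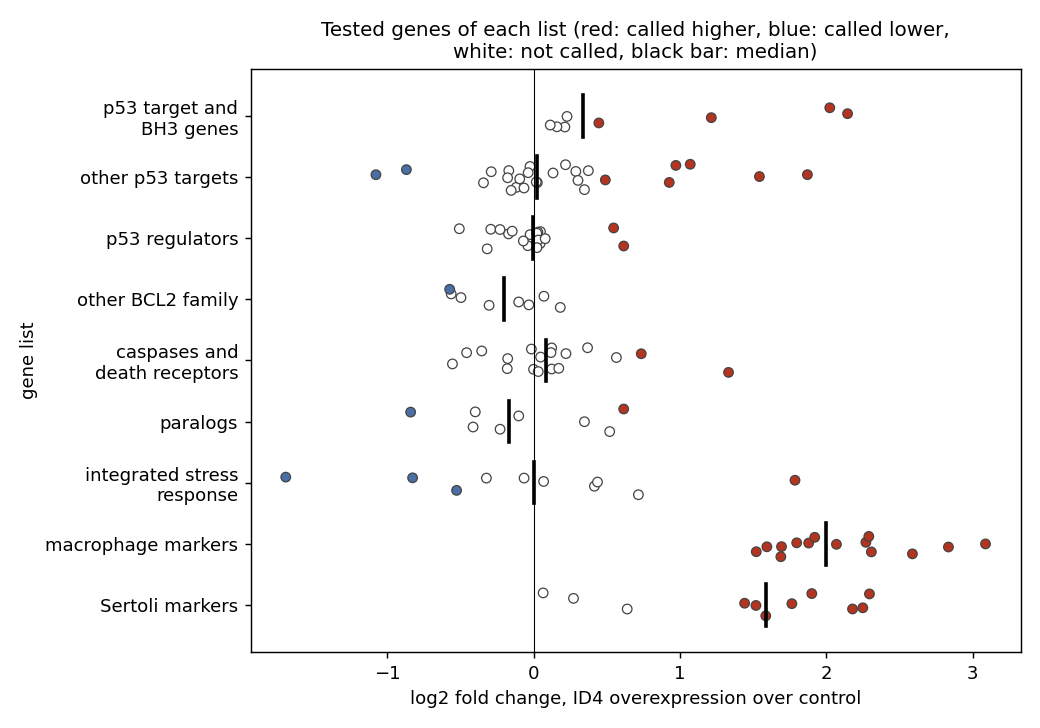
Log2 fold change, ID4 overexpression over control (horizontal axis), of the tested genes in each list, red where called higher, blue where called lower and white where not called, with the median as a black bar. The 10-gene group has 4 red points and 0 blue ones, the related p53, BCL2, caspase, paralog and stress lists have medians between -0.20 and 0.08, and macrophage and Sertoli cell markers lie to the right with medians of 1.99 and 1.59.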

How the data were processed

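RNA-seq was read from 1 deposited table for 6 samples. FPKM values were computed by the authors, 1 per group and already combined over replicates, and the p-values and q-values are from the authors' deposited table, whose layout is that of a Cuffdiff gene comparison per the file headers. The submitters' processing notes name TopHat, Cufflinks and mm9 and give no versions. However, 99.1% of 21585 symbols overlap the gene of that name in GENCODE M21 on GRCm38, so positions are printed as GRCm38, 1-based. Strand use and library scaling are not given in the sources used here, and 1 emptied line is not used.

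Fold changes were computed as overexpression FPKM over control FPKM with no pseudocount (Python 3.11.15, pandas 2.3.3). No model was refitted. The q-values lay within 4.77e-05 of p-values adjusted by the Benjamini-Hochberg method over 10990 tested genes. That step was tested on simulated data. The smallest p-value, 5e-05, is shared by 657 called genes. The 10 members and all lists were chosen with earlier results of these data known. Besides the members and Id4, the rule names up to 6 called genes per list with the largest changes. A called gene of the caspase and death receptor list is counted but not reported here.

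Alternatives were q-value thresholds of 0.01 and 0.1, a minimum of 1 FPKM, a log2 fold change of at least 1 in size, a pseudocount of 1 or 0.1, and centring on the overall median. Leaving out chromosome 15 was added after seeing the data.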

Additional observations from a re-analysis of the deposited data

How the results depend on the processing

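The 4 higher calls among the 10 genes became 3 at a q of 0.01 and 3 at an absolute log2 fold change of at least 1, since Mdm2 (log2 fold change 0.44) was lost in both. All 4 stayed at a q of 0.1, at a minimum of 1 FPKM, with the median subtracted and without chromosome 15, and 0 were lower under each of these 6 settings. The members' median log2 fold change of 0.34 was 0.32 and 0.33 with pseudocounts of 1 and 0.1 and 0.32 with the overall median of 0.01 subtracted. At a q of 0.01, higher calls were 1 among p53 regulators and 1 among caspases and death receptors. Lower calls were then 0 in the other BCL2 family and 0 among paralogs. At that threshold the other p53 targets had 4 higher, down from 6, and still 2 lower. Lower calls in the stress response went from 3 to 2. At a q of 0.1, lower calls in the other BCL2 family were 2 and higher calls in the stress response 3. At an absolute log2 fold change of at least 1, the other p53 targets had 3 higher and 1 lower, regulators 0 higher, the BCL2 family 0 lower, caspases 1 higher, paralogs 0 higher and 0 lower, and the stress response 1 lower. Without chromosome 15 the other p53 targets and the BCL2 family had 0 lower each. Leaving out each replicate was not run, because the table holds 1 value per group. No paired analysis was possible because the columns carry no replicates. Bbc3 and Fas were below 1 FPKM in both groups and were not tested, and depth per sample is unknown.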
